A study of Homo sapiens with 12 samples.

Results

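PAX6, EMX1, EMX2, TBR1, FEZF2, BCL11B, CUX2, SLC17A7 and SLC17A6 are genes by which neuroscientists recognise the excitatory lineage of the cerebral cortex. They were taken as a list of known cortical identity genes, 9 of the 58302 genes counted, and were followed through all 6 groups of the study. The list was chosen with earlier results of these data known. In the developing brain, radial glia of the dorsal telencephalon divide to give intermediate progenitors and then glutamatergic projection neurons, which settle into deep layers first and upper layers later. PAX6, EMX1 and EMX2 encode homeodomain factors of the dorsal progenitor field, and PAX6 also acts in the eye. TBR1, FEZF2 and BCL11B (CTIP2) encode transcription factors of deep-layer projection neurons. FEZF2 is also present in early forebrain progenitors, and BCL11B is also used by striatal neurons. CUX2 encodes a homeodomain factor of upper-layer neurons and some of their progenitors. SLC17A7 (VGLUT1) and SLC17A6 (VGLUT2) encode the transporters that load glutamate into synaptic vesicles.

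The cells were neural progenitor cells (NPCs) made from H1, an established human embryonic stem cell line, either wild type (WT) or a double knockout (dKO) of UTX (KDM6A) and JMJD3 (KDM6B), the demethylases that remove methyl groups from lysine 27 of histone H3. The dKO line was a Cas9-targeted, puromycin-selected derivative of H1 in which the catalytic part of both enzymes was deleted, so genotype and cell line cannot be told apart. All cells were neuralised with SB431542 and dorsomorphin, picked as rosettes and grown as neurospheres with FGF2 and EGF. RNA was sequenced from WT and dKO NPCs at passage 2, from WT and dKO NPCs at passage 4, and from cells that had started as passage 2 NPCs and spent 28 days without FGF2 and EGF, in medium with GDNF, BDNF and cAMP (WT-D28 and dKO-D28), with 2 samples per group.

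All 9 genes lie on autosomes, and positions are given on hg38. PAX6 spans chr11:31784779-31817961 on the minus strand and SLC17A6 spans chr11:22338381-22379503 on the plus strand. EMX1 (chr2:72916260-72936071) and TBR1 (chr2:161416297-161425870) both lie on the plus strand of chromosome 2. EMX2 spans chr10:117542445-117549546 on the plus strand, FEZF2 spans chr3:62369681-62374324 on the minus strand, and BCL11B spans chr14:99169287-99272197 on the minus strand. CUX2 spans chr12:111034165-111350554 on the plus strand, and SLC17A7 spans chr19:49429401-49442360 on the minus strand. Part of the exonic sequence of PAX6 (25.4%), EMX2 (10.7%), TBR1 (6.6%) and EMX1 (5.8%) is overlapped by a gene on the opposite strand. The kit does not mark strand and the strand setting of the counting is not given in the sources used here, so on those shared bases the reads of both genes cannot be told apart.

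TBR1, FEZF2, BCL11B, SLC17A7 and SLC17A6 were the neuronal members with their highest level in WT NPCs at passage 4. For TBR1, BCL11B, SLC17A7 and SLC17A6, the ones with an entry in the RefSeq promoter table used here, the 250 bases upstream of the start (GRCh38.p14) are shown to compare genes that were high together. Each is written 5′ to 3′ on the strand of its gene. Capitals mark every match, on either strand, to TAATTA (a doubled homeodomain core), to CCAAT, or to CAGATG and to CAGCTG, both E-boxes of the kind that proneural factors bind. The windows are chr2:161416047-161416296 for TBR1, chr14:99272198-99272447 for BCL11B, chr19:49441528-49441777 for SLC17A7 and chr11:22338131-22338380 for SLC17A6.
TBR1: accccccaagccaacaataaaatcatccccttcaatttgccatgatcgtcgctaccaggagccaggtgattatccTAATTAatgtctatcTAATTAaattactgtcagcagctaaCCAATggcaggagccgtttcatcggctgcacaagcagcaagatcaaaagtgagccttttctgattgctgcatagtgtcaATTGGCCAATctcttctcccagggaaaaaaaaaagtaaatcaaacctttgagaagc
BCL11B: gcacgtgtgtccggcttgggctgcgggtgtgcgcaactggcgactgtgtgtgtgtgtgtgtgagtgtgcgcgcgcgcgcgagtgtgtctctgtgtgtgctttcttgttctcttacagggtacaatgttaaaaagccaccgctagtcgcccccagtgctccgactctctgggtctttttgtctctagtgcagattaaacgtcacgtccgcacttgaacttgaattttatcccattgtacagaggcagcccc
SLC17A7: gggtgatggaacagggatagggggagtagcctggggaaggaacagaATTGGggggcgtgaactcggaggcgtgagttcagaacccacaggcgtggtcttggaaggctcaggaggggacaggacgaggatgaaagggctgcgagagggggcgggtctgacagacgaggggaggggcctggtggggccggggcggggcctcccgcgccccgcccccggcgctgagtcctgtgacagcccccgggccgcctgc
SLC17A6: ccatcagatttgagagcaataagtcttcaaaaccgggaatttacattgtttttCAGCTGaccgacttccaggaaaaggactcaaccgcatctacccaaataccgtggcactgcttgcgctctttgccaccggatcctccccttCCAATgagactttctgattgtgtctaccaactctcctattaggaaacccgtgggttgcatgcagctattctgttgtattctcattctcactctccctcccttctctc
The TBR1 window held 2 matches to TAATTA and 3 to CCAAT, of which one pair adjoin. The SLC17A7 window held 1 match to CCAAT, the SLC17A6 window held 1 to CCAAT and 1 to CAGCTG, and the BCL11B window held no match to any of them. Over 35116 RefSeq promoter windows of the same length, TAATTA was found in 4.3%, CCAAT in 32.0%, CAGATG in 12.2% and CAGCTG in 14.0%. These are matches of letters only.

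The libraries held from 756942 to 1438807 counts in NPCs at passage 2, from 3174410 to 4220037 at passage 4 and from 4082248 to 10601172 at day 28, so a low gene is measured least well at passage 2. Values below are CPM, counts per 1000000 counts on the tested genes after TMM scaling, and 3 counts in a library correspond to 0.302 to 3.92 CPM, a floor that covers counting error only. The dKO-D28 samples differed most from each other, where the chi-square of their counts, divided by its degrees of freedom, was 14.1 over genes and 1.57 to 3.31 in the other groups. At passage 2, passage 4 and day 28, KDM6A was counted at 57.9, 52.2 and 46.6 CPM in the WT groups and at 39.3, 29.8 and 45.9 CPM in the matching dKO groups, and KDM6B at 170, 122 and 197 CPM against 157, 186 and 149 CPM. Only the catalytic exons were deleted while whole genes were counted, so these levels do not check the labels. All groups had the progenitor markers SOX2 (218 to 515 CPM) and NES (618 to 1783 CPM), and the list of 10 progenitor genes summed to 3528 to 7859 CPM over the samples. Not every gene of that list was high. HES5 was at most 2.61 CPM in any sample, and PROM1 stood at 2.88 and 3.02 CPM in WT-D28 against 103 and 95.4 CPM in WT NPCs at passage 2. WT NPCs at passage 4 also carried neuronal markers: 10 pan-neuronal genes summed to 5060 and 5698 CPM there. The same genes summed to 1332 and 1546 CPM in WT NPCs at passage 2 and 4531 and 4537 CPM in WT-D28 cells. A list of 6 astrocyte genes summed to 2019 and 2234 CPM in WT NPCs at passage 4, of which SLC1A3 alone gave 1781 and 1946 CPM. GFAP stood at 21.7 and 23.6 CPM there and AQP4 at 4.68 and 5.14 CPM. In such bulk samples, fewer cells of a type and less RNA per cell cannot be told apart.

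**Figure D1:**
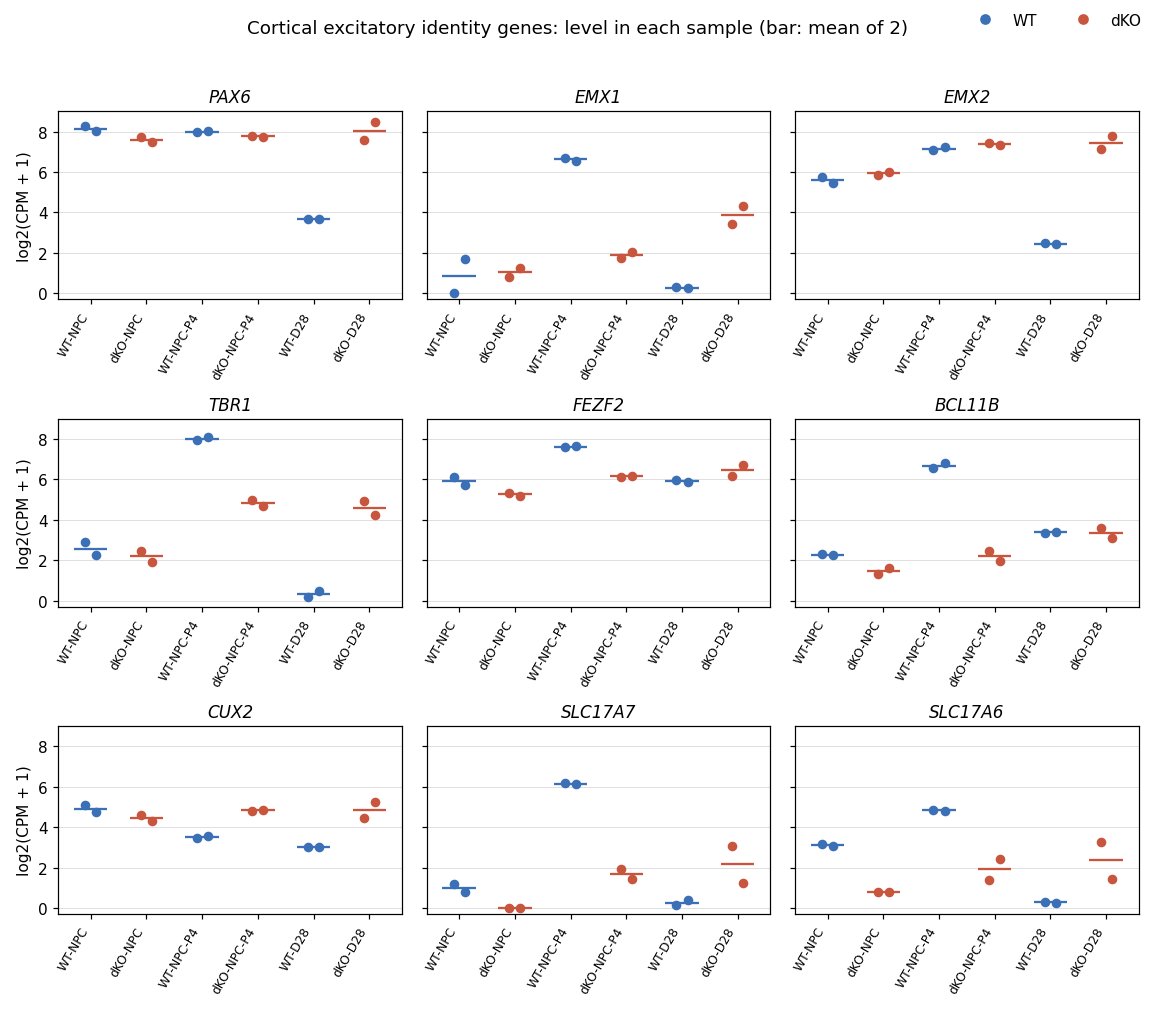
Level of each of the 9 genes in every sample, as log2(CPM + 1) on the vertical axis, with WT in blue and dKO in red; each point is 1 sample and each bar the mean of 2. EMX1, TBR1, BCL11B, SLC17A7 and SLC17A6 were highest in WT-NPC-P4, and PAX6, EMX2 and CUX2 were lowest in WT-D28.

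Across groups the 9 genes did not share one profile. WT NPCs at passage 4 had the highest level of EMX1, TBR1, FEZF2, BCL11B, SLC17A7 and SLC17A6, and in each case both samples lay above those of the next group. PAX6 and CUX2 had their highest mean in WT NPCs at passage 2, where their samples overlapped those of dKO-D28, and EMX2 was highest in dKO-D28, overlapping dKO NPCs at passage 4. WT-D28 was the lowest group for PAX6, EMX1, EMX2, TBR1, CUX2 and SLC17A6. For EMX1 and SLC17A6 that place is poorly held, since both genes had 2 and 2 counts in WT-D28. In dKO NPCs at passage 2, with smaller libraries, EMX1 had 1 and 2 counts and SLC17A6 had 1 and 1. Divided by exonic length (RPKM), the most abundant member was FEZF2 in each WT group, at 27.2, 88.1 and 26.7 RPKM at passage 2, passage 4 and day 28. In each dKO group it was EMX2, at 18.4, 51.4 and 54.9 RPKM. SLC17A7 was the lowest member per length in both NPC groups at passage 2 (0.171 RPKM in WT and 0 in dKO), in dKO NPCs at passage 4 (0.378 RPKM) and in dKO-D28 cells (0.740 RPKM). Its place in WT NPCs at passage 2 rests on 1 and 1 counts, against 0 and 3 for EMX1.

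The first comparison asks how these genes stood in early dKO progenitors. In NPCs at passage 2, 1 of 9 genes was called lower in dKO and 0 were called higher, where a call needs edgeR's quasi-likelihood test to give p under 0.05 before adjustment and a fold above 2. Over all 13454 genes tested, 1.83% were called lower and 2.59% higher, and the median log2 fold change was 0.0035, against -0.54 for the 9 genes. SLC17A6 was counted at 7.83 and 7.45 CPM in WT and at 0.751 and 0.707 CPM in dKO, which rests on 16 against 2 counts. The ratio of these counts per library was 10.4, with an exact 95% counting interval of 2.45 to 93.5. It was called at an unadjusted p of 0.0192, which did not pass Benjamini-Hochberg adjustment in edgeR's test (adjusted p = 0.208), and leaving out any one of the 4 samples took p above the threshold.

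The progenitor genes differed by less than the fold threshold at passage 2. PAX6 stood at 304 and 262 CPM in WT against 209 and 177.5 CPM in dKO (log2 fold change -0.54, SE 0.26). EMX2 stood at 53.5 and 43.2 CPM in WT against 56.3 and 63.6 CPM in dKO (0.34, SE 0.24). In both genes the samples of the genotypes did not overlap. FEZF2 had a lower level in dKO, 39.8 and 34.65 CPM against 69.2 and 52.2 CPM, with edgeR's unadjusted p of 0.0102 (adjusted p = 0.151), but its fold of 1.59 was below the threshold. CUX2, at 32.6 and 26.1 CPM in WT against 23.3 and 19.1 CPM in dKO, gave a log2 fold change of -0.44 (SE 0.31). EMX1, TBR1 and BCL11B were all below 7 CPM in each of these 4 samples, and SLC17A7 had 2 counts in WT and 0 in dKO, which is under the floor and allows no fold.

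At passage 4 the genotypes separated widely. In dKO NPCs 6 of 9 genes were called lower and 1 higher, against 11.2% and 11.1% of all tested genes, and the median log2 fold change of the 9 genes was -3.17, against 0.020 over all genes. All 7 calls also had a Benjamini-Hochberg adjusted p below 0.05 in edgeR's test. EMX1, SLC17A7 and SLC17A6, 3 of the 6 lower ones, passed the count minimum only through WT NPCs at passage 4, the group where they were high, so the count of 6 is a description and is not to be read against the share over all genes.

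Among the progenitor genes, EMX1 was counted at 101 and 93.75 CPM in WT against 2.34 and 3.19 CPM in dKO at passage 4. It was 34.9-fold lower in dKO, a log2 fold change of -5.13 (SE 0.31, edgeR adjusted p = 2.56e-09). Its paralog EMX2 stood at 136 and 148 CPM in WT against 172 and 163 CPM in dKO, a log2 fold change of 0.24 (SE 0.16) that was not called. PAX6, at 247.5 and 261 CPM in WT against 222 and 212 CPM in dKO, was not called either (-0.23, SE 0.23, edgeR adjusted p = 0.444). So of the 3 dorsal progenitor genes, EMX1 was called lower while the other 2 differed by less than 1.2-fold.

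The deep-layer genes were all lower in dKO NPCs at passage 4. TBR1 was counted at 245.5 and 268 CPM in WT against 30.7 and 24.8 CPM in dKO, a log2 fold change of -3.21 (SE 0.19, edgeR adjusted p = 1.75e-09). BCL11B was counted at 92.5 and 112 CPM in WT against 4.45 and 2.94 CPM in dKO (-4.78, SE 0.23, edgeR adjusted p = 1.71e-10). FEZF2 was 2.78-fold lower, at 196 and 197 CPM in WT against 69.1 and 71.85 CPM in dKO (-1.48, SE 0.15, edgeR adjusted p = 8.42e-07). No dKO sample reached the level of a WT sample in any of these genes. BCL11B thus differed 27.4-fold and TBR1 9.24-fold. The RNA on the opposite strand of TBR1 (ENSG00000224076) stood at 27.4 and 27.0 CPM in WT against 5.39 and 3.43 CPM in dKO, and the one opposite EMX1 (ENSG00000278060) at 17.04 and 15.7 CPM against 1.41 and 0.491 CPM.

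CUX2 went the other way. It was counted at 10.02 and 10.8 CPM in WT against 27.2 and 28.2 CPM in dKO at passage 4, so it was 2.65-fold higher in dKO (log2 fold change 1.40, SE 0.25, edgeR adjusted p = 0.000236). Both glutamate transporters were lower. SLC17A7 was counted at 70.8 and 69.1 CPM in WT against 2.81 and 1.72 CPM in dKO (-4.92, SE 0.49, edgeR adjusted p = 1.47e-05). SLC17A6 was counted at 27.7 and 27.0 CPM in WT against 1.64 and 4.41 CPM in dKO (-3.17, SE 0.51, edgeR adjusted p = 0.000236), and without the second dKO sample its log2 fold change was -4.03.

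**Figure D2:**
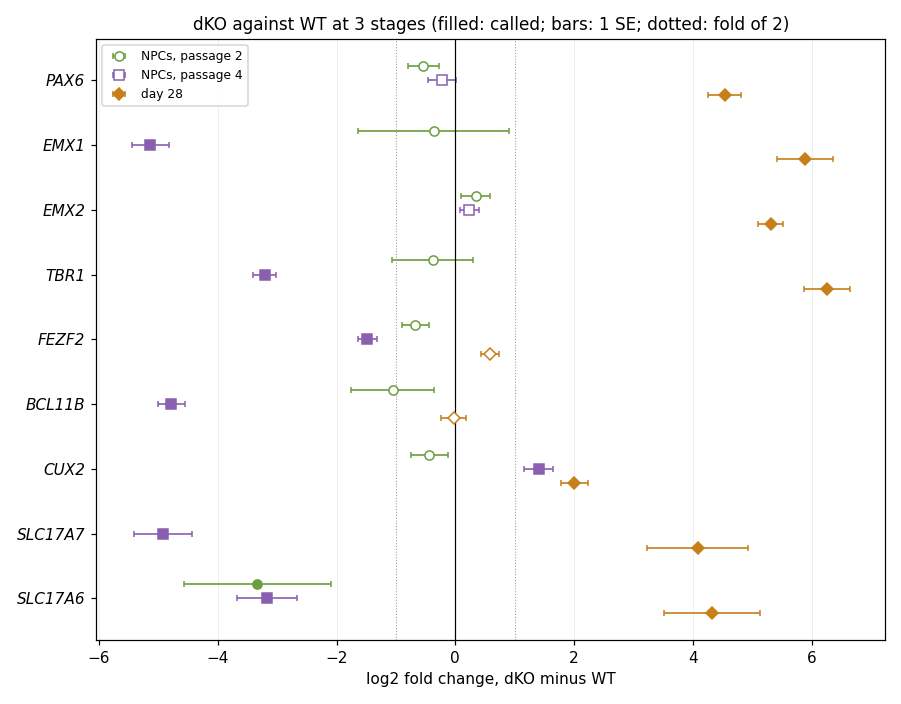
Log2 fold change of dKO over WT (horizontal axis) for each gene in NPCs at passage 2 (circles), NPCs at passage 4 (squares) and at day 28 (diamonds), with 1 SE; filled symbols were called and dotted lines mark a fold of 2. SLC17A7 at passage 2 is left out as under the floor; EMX1 stood at -5.13 at passage 4 and 5.88 at day 28.

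Markers of several cell classes also differed between the genotypes at passage 4. All 9 tested pan-neuronal genes were called lower in dKO, and the list of 10 summed to 917 and 935 CPM against 5060 and 5698 CPM in WT, with none at 0. The 6 astrocyte genes summed to 33.7 and 41.0 CPM in dKO against 2019 and 2234 CPM, with all 5 tested called lower. Most of the WT sum was SLC1A3, at 16.4 and 19.9 CPM in dKO against 1781 and 1946 CPM. The 12 GABAergic and ventral forebrain genes summed to 46.8 and 48.95 CPM in dKO against 207.5 and 219 CPM, with 6 of 11 tested called lower and GSX2 at 0 in dKO. The 13 neural crest and mesenchyme genes summed to 1808 and 1820 CPM in dKO against 237 and 250 CPM, with PAX3 at 0 in WT. Of 9 tested, 5 were called higher and 0 lower. Collagen genes gave most of the dKO sum: COL1A1 (512 and 526 CPM), COL1A2 (806.5 and 803 CPM) and COL3A1 (357 and 353 CPM). The crest genes SOX10, FOXD3 and TFAP2B were at most 0.736 CPM in dKO, whereas PAX3 stood at 32.1 and 33.1 CPM. The 10 progenitor genes summed to 5468 and 5489 CPM in dKO and to 7435 and 7528 CPM in WT, with HES5 at 0 in dKO. Of 9 tested, 1 was called higher and 2 lower, with a median log2 fold change of -0.049. FABP7 gave most of the gap between these sums, at 87.1 and 79.2 CPM in dKO against 1884 and 1720 CPM in WT. The part of these classes in the differences between genotypes was not tested.

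Lists of genes of the same lineage were counted beside the 9 genes. Like those, they were chosen with earlier results of these data known. Over all tested genes at passage 4, 11.2% were called lower and 11.1% higher, but the list counts are a description and are not to be read against these shares. Whether genes of the lists passed the count minimum only through WT NPCs at passage 4 was not tested. In dKO NPCs at passage 4, all 9 tested genes of the cortical neurogenic cascade were called lower (median log2 fold change -3.94). NEUROG2, a proneural factor, stood at 0.234 and 0.981 CPM in dKO against 163 and 152 CPM in WT. EOMES, the intermediate progenitor factor that precedes TBR1, stood at 2.81 and 2.70 CPM against 402 and 413 CPM (log2 fold change -7.19, SE 0.17, edgeR adjusted p = 1.19e-13). Of 17 tested excitatory neuron genes, 16 were called lower and 0 higher (median -2.91). NEUROD6 and NEUROD2, factors of maturing pyramidal neurons, had 0 counts in both dKO samples, against 365 and 379 CPM and against 267 and 256 CPM in WT.

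Lists of layer genes and of dorsal progenitor genes were counted in the same way. Of 12 tested deep-layer genes, 9 were called lower and 1 higher in dKO NPCs at passage 4 (median -1.91). GRIK3, a kainate receptor subunit, fell by 6.33 on the log2 scale (SE 0.55) and NFIB by 4.83 (SE 0.20), while TLE4, a corepressor of deep-layer neurons, was 1.21 higher (SE 0.13). Of 12 tested upper-layer genes, 5 were called lower and 0 higher (median -0.93), led by POU3F2 (-3.28, SE 0.27) and RORB (-2.42, SE 0.24). The dorsal progenitor list was split, with 8 of 19 called lower and 5 higher (median -0.46). HOPX, a marker of outer radial glia, stood at 0.703 and 0.981 CPM in dKO against 215.5 and 207.5 CPM in WT, whereas DMRTA1 stood at 59.7 and 65.2 CPM against 4.01 and 5.91 CPM.

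**Figure D3:**
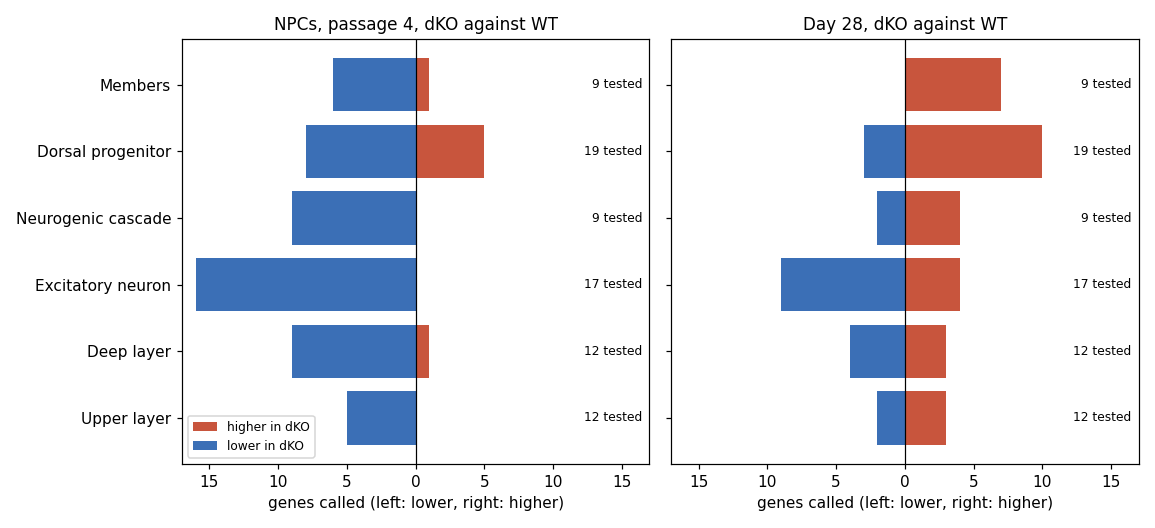
Number of genes called higher (red, right) and lower (blue, left) in dKO than in WT, for the 9 members and 5 lists of related genes, at passage 4 and at day 28, with the number tested at the right edge. At passage 4 the neurogenic list had 9 of 9 called lower; at day 28 the dorsal progenitor list had 10 of 19 called higher.

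The passage 4 difference can be read within each genotype, against the same passage 2 samples. In WT NPCs 7 of 9 genes were called higher at passage 4 than at passage 2 and 1 was called lower, against 10.3% and 9.49% of all tested genes, and this count too holds the 3 genes that passed the count minimum only through WT NPCs at passage 4. TBR1 rose 53.6-fold, from 6.53 and 3.73 CPM to 245.5 and 268 CPM (log2 fold change 5.74, SE 0.32, edgeR adjusted p = 3.59e-09), and BCL11B rose 26.8-fold from 3.92 and 3.73 CPM. EMX1 went from 0 and 2.24 CPM, which is 3 counts, to 668 counts, a ratio of 68.1 with an exact 95% counting interval of 23.2 to 331. For SLC17A7 the ratio was 73.6 (interval 20.3 to 609) on 2 counts at passage 2. EMX2, FEZF2 and SLC17A6 rose by log2 fold changes of 1.58, 1.73 and 1.84, and the SLC17A6 call was lost without the second WT sample at passage 2 (unadjusted p of 0.0777). CUX2 fell by 1.46 on the log2 scale (SE 0.30, edgeR adjusted p = 0.00137), and PAX6 was not called (-0.15, SE 0.25).

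In dKO NPCs 2 of 9 genes were called higher at passage 4 than at passage 2 and 0 lower, against 4.61% and 5.22% of all tested genes. TBR1 rose 7.56-fold, from 4.50 and 2.83 CPM to 30.7 and 24.8 CPM (log2 fold change 2.92, SE 0.40, edgeR adjusted p = 0.000106). EMX2 rose 2.79-fold, from 56.3 and 63.6 CPM to 172 and 163 CPM (1.48, SE 0.19, edgeR adjusted p = 7.39e-05), and in WT it rose 2.997-fold. The difference between these changes was -0.10 (SE 0.29). All 9 fitted values were positive. FEZF2 had edgeR's adjusted p of 0.00368 but a fold of 1.90. SLC17A7 had 0 counts at passage 2 and 19 at passage 4. Set against 3 counts over the dKO samples of passage 2 together, which is 1.09 CPM, SLC17A7 was at least 2.07-fold higher without being called (edgeR's unadjusted p was 0.054).

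Whether the genotype difference itself changed between passages was tested as a contrast of contrasts. For 3 of 9 genes it was called more negative at passage 4 than at passage 2, against 9.57% of all tested genes, and for 1 it was called more positive, against 9.72%. The lower ones were EMX1, TBR1 and BCL11B and the higher one was CUX2. EMX1, and SLC17A7 and SLC17A6 among the genes not called, passed the count minimum only through WT NPCs at passage 4. The count of 3 is therefore a description and is not to be read against the share over all genes. For EMX1 the contrast rests on 3 counts in each genotype at passage 2, so its size is poorly held: it was no longer called without the second dKO sample of that passage, and the fitted value went from -4.76 to -10.37 without the second WT sample, which leaves a WT sample with no EMX1 count. For SLC17A6 the fitted contrast was 0.16 (SE 1.3, edgeR adjusted p = 0.953), an estimate with a wide error. No size is given for SLC17A7, because its dKO samples held no count at passage 2.

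**Figure D4:**
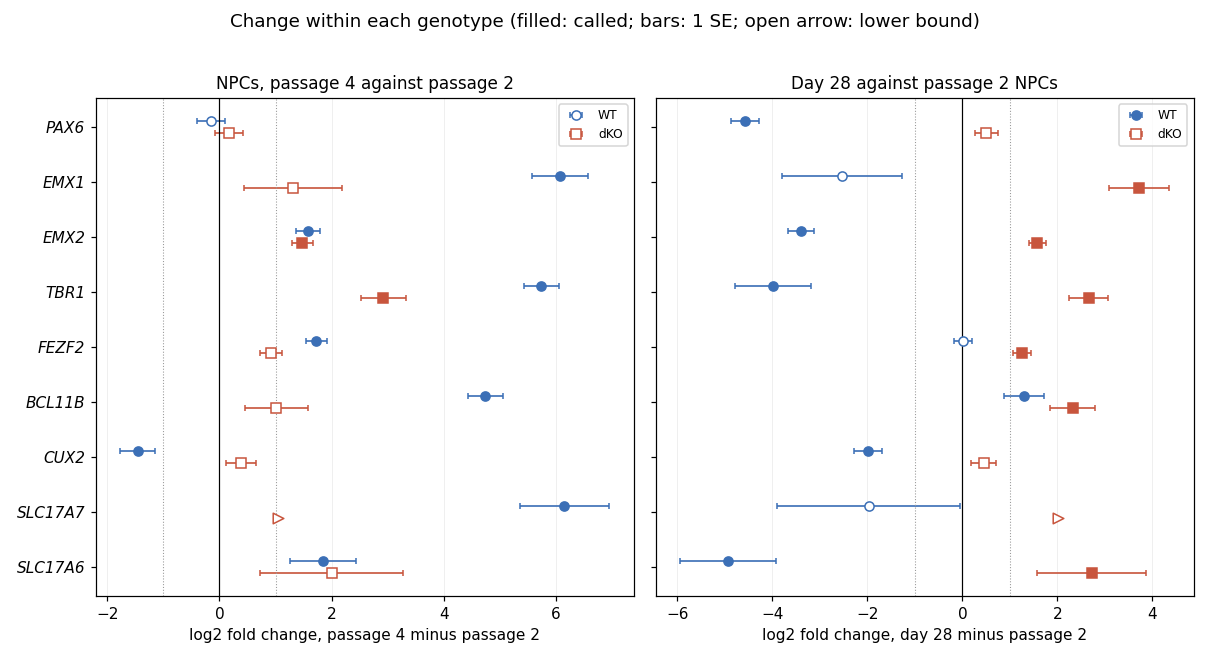
Log2 fold change of each gene within WT (blue circles) and within dKO (red squares), for passage 4 over passage 2 (left) and day 28 over passage 2 (right), with 1 SE; filled symbols were called and open arrows are lower bounds where the passage 2 samples held no count. TBR1 stood at 5.74 in WT and 2.92 in dKO on the left, and at -3.98 and 2.66 on the right.

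At day 28, EMX1, TBR1, SLC17A7 and SLC17A6 were called in the opposite direction to passage 4, and CUX2 was called higher in dKO at both. In dKO-D28 cells 7 of 9 genes were called higher than in WT-D28 cells and 0 lower, against 12.4% and 11.7% of all tested genes, with a median log2 fold change of 4.32 for the 9 genes and 0.0026 over all genes. All 7 calls had a Benjamini-Hochberg adjusted p below 0.05 in edgeR's test, and the count was 7 without either dKO-D28 sample.

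PAX6, EMX1 and EMX2 were all higher in dKO-D28. PAX6 was counted at 11.9 and 11.7 CPM in WT-D28 and 189.6 and 356 CPM in dKO-D28, 23.2-fold higher (log2 fold change 4.53, SE 0.28, edgeR adjusted p = 4.1e-07). EMX2 was counted at 4.56 and 4.43 CPM against 141 and 217.5 CPM, 39.7-fold higher (5.31, SE 0.21, edgeR adjusted p = 3.8e-11). EMX1 was counted at 0.240 and 0.201 CPM against 9.70 and 19.3 CPM (5.88, SE 0.47, edgeR adjusted p = 4.03e-08). Its WT-D28 level rests on 2 counts in each sample, under the floor of 3, so the size of this difference is poorly held. The second dKO-D28 sample was the higher of the pair for each of these 3 genes, and without it the EMX1 value was 5.27. With the GC and length correction the log2 fold change was 3.73 for PAX6 and 6.94 for EMX1. ELP4, which shares exonic bases with PAX6 on the opposite strand, was 3.08-fold higher in dKO-D28, and EMX2OS, the antisense RNA of EMX2, was 29.6-fold higher. How many of the reads of one came from the other was not tested.

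The deep-layer genes differed from one another at day 28. TBR1 was counted at 0.120 and 0.402 CPM in WT-D28, 5 counts in all, and at 29.1 and 17.95 CPM in dKO-D28, 76.3-fold higher (log2 fold change 6.25, SE 0.38, edgeR adjusted p = 2.28e-09), or 7.22 without the second WT-D28 sample. FEZF2, at 60.85 and 58.25 CPM in WT-D28 and 72.0 and 105 CPM in dKO-D28, had edgeR's adjusted p of 0.00392 with a fold of 1.49, below the threshold. BCL11B stood at 9.12 and 9.66 CPM in WT-D28 and 10.9 and 7.72 CPM in dKO-D28, and these samples overlapped (-0.03, SE 0.22). BCL11B and FEZF2 were the 2 genes that were not called.

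CUX2 was 3.997-fold higher in dKO-D28, at 21.1 and 36.3 CPM against 7.20 and 7.24 CPM (log2 fold change 2.00, SE 0.23, edgeR adjusted p = 1.69e-06). SLC17A7 was counted at 7.51 and 1.35 CPM in dKO-D28 and 0.120 and 0.302 CPM in WT-D28 (4.08, SE 0.85, edgeR adjusted p = 0.0021). SLC17A6 was counted at 8.73 and 1.74 CPM against 0.240 and 0.201 CPM (4.32, SE 0.81, edgeR adjusted p = 0.000611). In the WT-D28 samples SLC17A7 had 1 and 3 counts and SLC17A6 had 2 and 2, at or under the floor of 3, so these sizes are poorly held. Both transporters were several times higher in the first dKO-D28 sample than in the second, and without the first sample their log2 fold changes were 2.46 and 2.82, against 4.91 and 5.12 without the second. With the GC and length correction they were 2.78 for SLC17A7 and 6.18 for SLC17A6. Their highest level in dKO-D28 was below that in either WT NPC sample at passage 4.

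**Figure D5:**
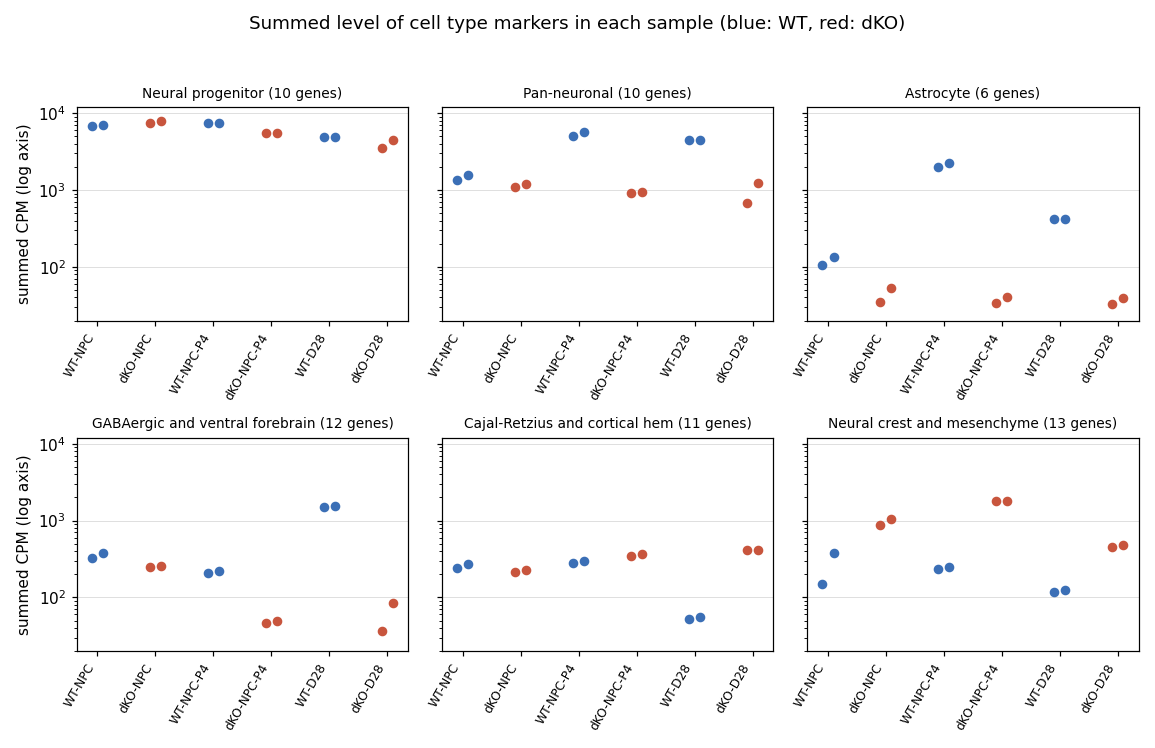
Summed CPM (log axis) of 6 marker lists in each sample, with WT in blue and dKO in red; the points of a group are its 2 samples, drawn from low to high. Pan-neuronal markers summed to 5060 and 5698 CPM in WT-NPC-P4 and to 675 and 1248 CPM in dKO-D28, and GABAergic markers to 1505 and 1530 CPM in WT-D28.

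Cell class markers differed between the day 28 groups as well. The 12 GABAergic and ventral forebrain genes summed to 1505 and 1530 CPM in WT-D28 and 36.1 and 84.1 CPM in dKO-D28, with all 11 tested called lower in dKO and none of the 12 at 0 in either group. GAD1, an enzyme of GABA synthesis, stood at 178 and 174 CPM in WT-D28 and 4.36 and 3.28 CPM in dKO-D28. All 9 tested pan-neuronal genes were called lower in dKO-D28, with sums of 675 and 1248 CPM against 4531 and 4537 CPM. The 6 astrocyte genes summed to 33.2 and 38.8 CPM in dKO-D28 against 417 and 420 CPM, with all 5 tested called lower. The 13 neural crest and mesenchyme genes summed to 457 and 487 CPM in dKO-D28 against 117 and 124 CPM, with 7 of 9 tested called higher and 1 lower. COL1A1 and COL1A2 gave most of that dKO-D28 sum, at 154 and 190 CPM in the first sample and 79.9 and 189 CPM in the second. SOX10 was at most 0.386 CPM in dKO-D28, whereas PAX7 stood at 70.5 and 62.1 CPM. The 11 Cajal-Retzius and cortical hem genes summed to 409 and 417 CPM in dKO-D28 and 52.6 and 55.1 CPM in WT-D28. LHX1 was at 0 in both groups, and EBF2, WNT3A and LMX1A were at 0 in WT-D28 only. Of 7 genes of this list tested, 5 were called higher in dKO-D28 and 0 lower. Most of the dKO-D28 sum was RELN, at 318 and 267 CPM against 10.2 and 8.55 CPM in WT-D28. RELN already stood at 181 to 241.5 CPM in the NPCs of both genotypes at passage 2. The 8 retina and eye field genes summed to 115 and 198 CPM in dKO-D28 and 16.8 and 18.9 CPM in WT-D28. Of 5 genes of this list tested, 3 were called higher in dKO-D28 and 0 lower. PMEL alone gave 38.1 and 99.4 CPM in dKO-D28. At passage 2 the list already summed to 102 and 149 CPM in WT NPCs and to 62.2 and 78.1 CPM in dKO NPCs. The part of these classes in the levels of the 9 genes was not tested.

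The related lists held calls in both directions at day 28, where 12.4% of all tested genes were called higher and 11.7% lower. These list counts too are a description. Of 19 tested dorsal progenitor genes, 10 were called higher in dKO-D28 and 3 lower (median log2 fold change 1.15). SP8, a patterning factor, stood at 205 and 269 CPM in dKO-D28 and at 0.6001 and 0.101 CPM in WT-D28, and DMRT3 at 15.5 and 25.5 CPM against 0 counts. HOPX went the other way, at 1.21 and 0.193 CPM against 10.1 and 7.95 CPM, as did FGFR3, a receptor of radial glia, at 30.1 and 43.8 CPM against 127 and 121 CPM. Of 9 neurogenic genes 4 were called higher and 2 lower (median 0.13), with NEUROG1 higher by 6.56 (SE 0.48) and ELAVL4 lower (-2.04, SE 0.43). Of 17 excitatory neuron genes 4 were called higher and 9 lower (median -1.15). GRIN2B, an NMDA receptor subunit, stood at 1.21 and 0.772 CPM in dKO-D28 against 274 and 248 CPM in WT-D28. Of 12 deep-layer genes 3 were higher and 4 lower (median -0.27), and of 12 upper-layer genes 3 were higher and 2 lower (median -0.55). FOXP2 was higher in dKO-D28, at 25.9 and 22.4 CPM against 1.56 and 1.41 CPM, and GRIK3 was lower, at 10.4 and 1.74 CPM against 477 and 472.5 CPM.

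Differentiation was then followed within each genotype, again against passage 2 NPCs. In WT-D28 cells 5 of 9 genes were called lower than in WT NPCs and 1 higher, against 11.5% and 12.9% of all tested genes, with a median log2 fold change of -2.53. PAX6 fell by 4.57 on the log2 scale (SE 0.29, edgeR adjusted p = 1.08e-06), and the log2 fold changes of EMX2 and TBR1 were -3.39 (SE 0.28) and -3.98 (SE 0.80). SLC17A6 fell by 4.93 (SE 1.01, edgeR adjusted p = 0.0016), and CUX2 fell 3.97-fold. Few counts lie under 2 of these values: TBR1 had 5 and 5 counts in WT NPCs and 1 and 4 in WT-D28, and SLC17A6 had 6 and 10 against 2 and 2. BCL11B rose from 3.92 and 3.73 CPM to 9.12 and 9.66 CPM (2.46-fold, edgeR adjusted p = 0.0182), a call that was lost without the second WT NPC sample (unadjusted p of 0.0802). FEZF2 stood at 69.2 and 52.2 CPM in WT NPCs and 60.85 and 58.25 CPM in WT-D28 (0.01, SE 0.19).

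In dKO-D28 cells 7 of 9 genes were called higher than in dKO NPCs and 0 lower, against 4.01% and 3.14% of all tested genes, with a median log2 fold change of 2.32. EMX1 went from 3 counts to 140, a ratio of 13.8 (exact 95% counting interval 4.62 to 67.6), and TBR1 rose 6.33-fold (2.66, SE 0.41, edgeR adjusted p = 0.000437). EMX2 rose 2.99-fold, FEZF2 2.39-fold and BCL11B 4.98-fold. Without the second dKO-D28 sample the FEZF2 value was 0.95 on the log2 scale, below the fold threshold, and the fitted EMX1 value went from 3.72 to 3.11. PAX6 (0.50, SE 0.24) and CUX2 (0.45, SE 0.26) were not called, and for both the samples of the 2 stages overlapped. SLC17A7 was at least 4.06-fold higher in dKO-D28, set against 3 counts over the dKO NPC samples, which held none. Neither transporter passed Benjamini-Hochberg adjustment in edgeR's test (adjusted p = 0.106 for SLC17A7 and 0.175 for SLC17A6), and SLC17A6 was not called without the first dKO-D28 sample (log2 fold change 1.22, unadjusted p of 0.23).

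The contrast of the genotype difference at day 28 with that at passage 2 was called higher for 8 of 9 genes and lower for 0, against 12% and 11.1% of all tested genes. The exception was BCL11B (log2 value 1.02, SE 0.73, edgeR adjusted p = 0.369). For EMX1 the contrast fell from 6.25 to 0.66 without the second WT NPC sample, since the other held no EMX1 count, and for SLC17A7 it was not past Benjamini-Hochberg adjustment in edgeR's test (adjusted p = 0.106).

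The 9 genes differed in which other genes they resembled. For each, the 3 tested genes with the highest Pearson correlation of log2 CPM over the 12 samples were taken, as a description, since those points share libraries and group differences. EMX1 (r = 0.969) and SLC17A7 (r = 0.934) both had EOMES among their 3. EMX2 had CDON (r = 0.993), a Hedgehog co-receptor, its antisense partner EMX2OS (r = 0.985) and GAS1 (r = 0.973). CUX2 had YAP1 (r = 0.990), the Hippo pathway coactivator, with IGDCC3 and IMPA2. PAX6 had ARRDC3 (r = 0.986), XRN2 and FLRT2, and TBR1 had RTN4RL2 (r = 0.956), DMRTA2 and PSMG2. Among the nearest genes to BCL11B were SLC15A2 (r = 0.977) and PRUNE2, and the nearest were, to FEZF2, HUNK (r = 0.960), GPR153 and ADRA2A, and to SLC17A6, ZKSCAN1 (r = 0.952), WSCD1 and ANGPTL1. No member of the 9 was among the 3 nearest genes of another, though some pairs of members were also highly correlated. Between members, r ran from -0.575 (BCL11B and CUX2) to 0.916 (FEZF2 and SLC17A7), and it was 0.91 for PAX6 and EMX2.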

How the data were processed

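Total RNA from 12 samples in 6 groups of 2 was made into TruSeq libraries. Per the submitters' processing notes, reads were mapped to hg38 with HISAT2 2.0.4, sorted with SAMtools 1.3.1 and counted with HTSeq 0.6.0. The authors deposited whole-number counts for each Ensembl gene, neither normalized nor filtered. The strand setting and annotation release are not given in the sources used here. GENCODE v44 gave names, positions and exonic lengths for 57532 of 58302 genes (98.7%).

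In R 4.3.3, 13454 genes averaging 20 counts or more were fitted with TMM and edgeR 4.0.16 (robust quasi-likelihood test, group means). Genes were called at unadjusted p below 0.05 and fold above 2, the study's thresholds, with Benjamini-Hochberg adjustment over all tested genes beside them. The SE is the log2 fold change over the square root of F. All 9 genes passed the count minimum, but EMX1, SLC17A7 and SLC17A6 would not have without WT NPCs at passage 4. Correlations used log2 CPM with a prior count of 2, and 1 gene correlated with BCL11B is not reported here. The fit was tested on simulated data.

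Members and lists were chosen with earlier results of these data known. Named genes of each related list are the 2 with the largest called rise and fall. Cell class markers given with values, among them SOX2, NES and GAD1, were named after their values were seen. The labels give no passage for the NPCs without P4, and passage 2 came from the paper. They give no batch, so batch and group cannot be told apart. Nothing says that replicates were separate cultures, so p-values may measure technical spread, and an exact two-sided permutation test of 2 against 2 samples goes no lower than 0.333. Alternatives were DESeq2 1.42.0, adjusted calls, only the samples compared, other count filters, a GC and length correction, a replicate block and leaving out each sample. The deviations of same-numbered samples had a mean correlation of 0.0177 over 15 pairs of groups, from -0.0555 to 0.182, the highest between the passage 4 groups and the only one above 0.1, so they were not treated as paired.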

Additional observations from a re-analysis of the deposited data

Results flagged for a closer look

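The genotype difference of several genes differed between stages by a test of the difference itself, an edgeR contrast of contrasts, and these values are listed without an explanation. Between day 28 and NPCs at passage 2 the difference, dKO minus WT, moved up on the log2 scale by 5.08 (SE 0.38) for PAX6, 6.25 (SE 1.67) for EMX1 and 4.97 (SE 0.34) for EMX2. It moved up by 6.64 (SE 0.95) for TBR1, 1.25 (SE 0.27) for FEZF2, 2.44 (SE 0.39) for CUX2 and 7.65 (SE 1.46) for SLC17A6. Adjusted p-values of edgeR's test for these 7 genes lay between 7.77e-08 and 0.0102. For SLC17A7, whose dKO NPC samples held no count, no size is given, and edgeR's unadjusted p was 0.0407. Without the second dKO-D28 sample the FEZF2 value was 0.93, below the fold threshold.

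Between passage 4 and passage 2 the genotype difference moved by -4.76 (SE 1.54) for EMX1, -2.82 (SE 0.75) for TBR1, -3.73 (SE 0.88) for BCL11B and 1.85 (SE 0.40) for CUX2, with edgeR's adjusted p between 0.00339 and 0.0355. CUX2 was the only one of the 9 genes whose genotype difference was called in the upward direction in both of these contrasts. The EMX1 value was -10.37 without the second WT NPC sample at passage 2, since the other held no EMX1 count.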

How the results depend on the processing

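Over 1575 single-gene values under the alternatives, 1496 kept their direction and side of the threshold, 36 fell short of it, 21 newly passed it and 22 turned direction, none of the last past the threshold as reported. With at least 10 counts in every sample only 4 of 9 genes were tested, and calls were 0 at passage 2, 2 at passage 4 and 3 at day 28 between genotypes, 3 and 2 for differentiation in WT and dKO, 3 and 1 for passage in WT and dKO, and 4 and 1 for the contrasts at day 28 and passage 4. Benjamini-Hochberg adjusted calls left 0 at passage 2. For dKO passage 4 against passage 2, 4 genes were called on the samples compared alone, with at least 1 count in any sample and with the GC and length correction. Without one sample at a time there were 0 to 1 calls at passage 2, 7 to 7 at passage 4 and at day 28 between genotypes, 5 to 7 for both differentiation comparisons, 7 to 8 and 2 to 4 for passage in WT and dKO, and 6 to 8 and 3 to 4 for the contrasts.

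For the values that turned direction the cause was not tested, and those of SLC17A7 are no sizes, being set by how each fit treats its 0 counts in dKO NPCs. PAX6 at passage 4 was 0.043 with the GC and length correction and 0.045 with the replicate block added. EMX1 was 5.24 at passage 2 and 3.07 for WT differentiation without the second WT NPC sample, EMX2 was 0.072 in the passage contrast without it, and FEZF2 was -0.22 for WT differentiation without it. FEZF2 there was also -0.01 with DESeq2, -0.14 with the GC and length correction, -0.13 with the block added and -0.026 without the first WT-D28 sample. BCL11B at day 28 was 0.015 and 0.21 without the second WT-D28 or dKO-D28 sample. PAX6 and CUX2 for dKO differentiation were -0.027 and -0.0028 without the second dKO-D28 sample. In the passage contrast SLC17A7 was -2.13 with DESeq2, -0.58 on the samples compared, -0.053 with at least 1 count, and -0.2, -0.37, -0.1 and -0.16 on leaving out samples, and SLC17A6 was -0.71 without the second dKO passage 4 sample. The replicate block left 80 of 81 values on their side of the threshold, and 1, SLC17A7 for dKO passage, newly passed it, where dKO NPCs held no count and no size can be given. At passage 2 the depth limits EMX1, TBR1, BCL11B and both transporters. Over the samples left out in turn, these values ranged as follows: EMX1 from -1.01 to 5.24 at passage 2 and from -3.19 to 3.07 for WT differentiation, BCL11B from -0.29 to 0.21 at day 28, and FEZF2 from -0.22 to 0.19 for WT differentiation. PAX6 and CUX2 reached 0.88 and 0.78 for dKO differentiation, and in the passage contrast EMX2 went as low as -0.24 and SLC17A7 and SLC17A6 as high as 0.57 and 0.71. Further called values moved by over 1.5 times: with the GC and length correction PAX6 and SLC17A6 were -3.76 and -6.52 for WT differentiation, EMX1 2.97 for dKO differentiation, TBR1 and SLC17A7 5.07 and 5.55 for WT passage, and PAX6, EMX1 and SLC17A6 4.10, 7.25 and 9.33 in the day 28 contrast. Without the second WT-D28 sample TBR1 was -4.94 for WT differentiation and 7.60 in the day 28 contrast. Without the first or the second dKO-D28 sample SLC17A6 was 6.15 or 8.45 there, and EMX1 was 5.64 without the second.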
